A study of Mus musculus with 4 samples.

Results

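The genes described here are 10 members of the carbonic anhydrase family, Car2, Car3, Car4, Car7, Car8, Car9, Car11, Car12, Car13 and Car14, out of 39179 genes listed in the count files. They are a named list, found by the gene symbols that GENCODE gives to the Ensembl IDs, and they were chosen from that family with their CPM in the FLAG-Lhx1 and FLAG-Lhx1-mt embryos known. The values of the family between the groups are therefore given as a description. Of the 10 members, 9 had enough counts to enter the comparison across genes, and Car9 did not.

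The study sequenced RNA of 4 individual chimeric mouse embryos, made by injecting embryonic stem cells (ESCs) into host embryos at the 8-cell stage from an ARC x RLZRFP cross. In 2 embryos the ESCs carried FLAG-Lhx1, a doxycycline-inducible, FLAG-tagged form of the LIM homeodomain transcription factor LHX1, and in the other 2 they carried FLAG-Lhx1-mt, an altered form marked in the labels by a deletion sign too. All 4 embryos had the same treatment: the foster mothers drank 2 mg/mL doxycycline with 5% sucrose for 24 hours, and embryos taken at E8.5 were staged at E7.75 because their development lagged. No embryo without doxycycline and no wild-type embryo was analysed here, and how many ESC clones stand behind each form is not stated in the labels. The embryos also hold host cells, and as background, ESCs placed in a host embryo contribute little to the visceral endoderm and the trophoblast.

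Carbonic anhydrases are zinc enzymes that interconvert carbon dioxide and water with bicarbonate and a proton, and so set pH inside and outside cells and feed bicarbonate to transporters. The mammalian members differ mainly in where they work. Car1, Car2, Car3, Car7 and Car13 encode cytosolic enzymes, Car4 and Car15 encode enzymes tethered to the outer cell surface by a lipid anchor, and Car9, Car12 and Car14 encode membrane-spanning enzymes whose active site faces outwards. Car5a and Car5b encode mitochondrial forms and Car6 a secreted one. Car8, Car10 and Car11 encode related proteins that have lost a zinc ligand and have no catalytic activity.

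The start regions of 4 members are shown because 2 of them, Car4 and Car14, were among the members that were lower in FLAG-Lhx1, Car12 was higher, and Car9 is the family's classic hypoxia-induced gene. Each runs from 250 bases before to 50 bases after an annotated start, on the coding strand, and is taken from RefSeq on GRCm38.p6. The table matched 6 of the 10 members, with 9 promoters. Capitals mark every match, on either strand, to ACGTG (the core of the hypoxia response element) and TATAAA (the TATA motif); none of the 4 sequences held TAATTA (a LIM homeodomain core) or AGATAA, bound by factors of the GATA type, which were also searched. On the strand shown, the 3 matches to ACGTG read CACGT, and no marked matches overlap.
Car4, chr11:84957504-84957803, plus strand: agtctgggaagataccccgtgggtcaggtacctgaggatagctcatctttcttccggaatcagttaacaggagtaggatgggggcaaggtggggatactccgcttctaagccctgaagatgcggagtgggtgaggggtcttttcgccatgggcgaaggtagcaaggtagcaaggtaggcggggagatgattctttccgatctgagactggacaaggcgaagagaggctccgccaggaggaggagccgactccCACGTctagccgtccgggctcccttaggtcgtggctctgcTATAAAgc
Car14, chr3:95904636-95904935, minus strand: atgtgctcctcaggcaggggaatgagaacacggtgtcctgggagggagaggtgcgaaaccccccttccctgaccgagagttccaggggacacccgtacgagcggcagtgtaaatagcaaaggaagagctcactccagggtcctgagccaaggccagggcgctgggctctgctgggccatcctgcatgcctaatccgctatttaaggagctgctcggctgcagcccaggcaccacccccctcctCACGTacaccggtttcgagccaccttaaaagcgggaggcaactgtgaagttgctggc
Car12, chr9:66713436-66713735, plus strand: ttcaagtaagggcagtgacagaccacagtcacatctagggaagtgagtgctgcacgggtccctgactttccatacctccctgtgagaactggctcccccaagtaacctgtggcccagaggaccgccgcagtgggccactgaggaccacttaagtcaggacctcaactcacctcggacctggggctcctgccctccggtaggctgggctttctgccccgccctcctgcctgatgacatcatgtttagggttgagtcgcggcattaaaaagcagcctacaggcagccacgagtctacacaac
Car9, chr4:43506776-43507075, plus strand: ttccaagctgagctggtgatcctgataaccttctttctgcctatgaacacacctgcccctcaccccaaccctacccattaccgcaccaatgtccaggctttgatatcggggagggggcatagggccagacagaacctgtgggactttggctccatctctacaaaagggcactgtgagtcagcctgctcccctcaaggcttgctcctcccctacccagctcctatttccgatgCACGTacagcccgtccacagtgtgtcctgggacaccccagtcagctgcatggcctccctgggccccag
The core ACGTG stood in 3 of the 9 member promoters, those of Car4, Car14 and Car9, and in 19.6% of all 32851 promoters of the same length. Relative to the RefSeq start, these matches begin at +3 in Car4, -7 in Car14 and -18 in Car9. For these 3 genes the GENCODE gene starts given below differ from the RefSeq starts, so the positions hold for RefSeq only. TATAAA was in 1 of the 9, that of Car4, against 13.6% of all. It begins at +43, downstream of the RefSeq start. AGATAA was in 1, a Car7 promoter, against 11.2% of all, and TAATTA was in 0 of the 9, against 5.29% of all. These counts describe letters in the windows only.

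Across the family, 4 members were called lower in FLAG-Lhx1 than in FLAG-Lhx1-mt (Car2, Car4, Car7 and Car14) and 2 were called higher (Car3 and Car12). The other 3 tested members, Car8, Car11 and Car13, were not called. A call is a Benjamini-Hochberg adjusted p under 0.05 in edgeR's quasi-likelihood test over all 15822 tested genes, of which 6.17% were called (2.62% higher and 3.55% lower). The median log2 fold was -0.87 over the 9 tested members and 0.01 over all tested genes. Because the members were chosen with these levels known, nothing is read from the number of calls. The 4 lower members together made up 95.2% and 94.5% of the family's summed level in FLAG-Lhx1 embryos 1 and 2, against shares of 98.2% and 98.6% in FLAG-Lhx1-mt embryos 1 and 2. The summed level was 877 and 882 CPM (counts per 1000000 library counts, scaled by TMM) in FLAG-Lhx1, against 1989 and 1449 CPM in FLAG-Lhx1-mt embryos. Both FLAG-Lhx1 embryos lay below both FLAG-Lhx1-mt embryos, and in whole embryos fewer cells of a type and less RNA per cell cannot be told apart.

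**Figure D1:**
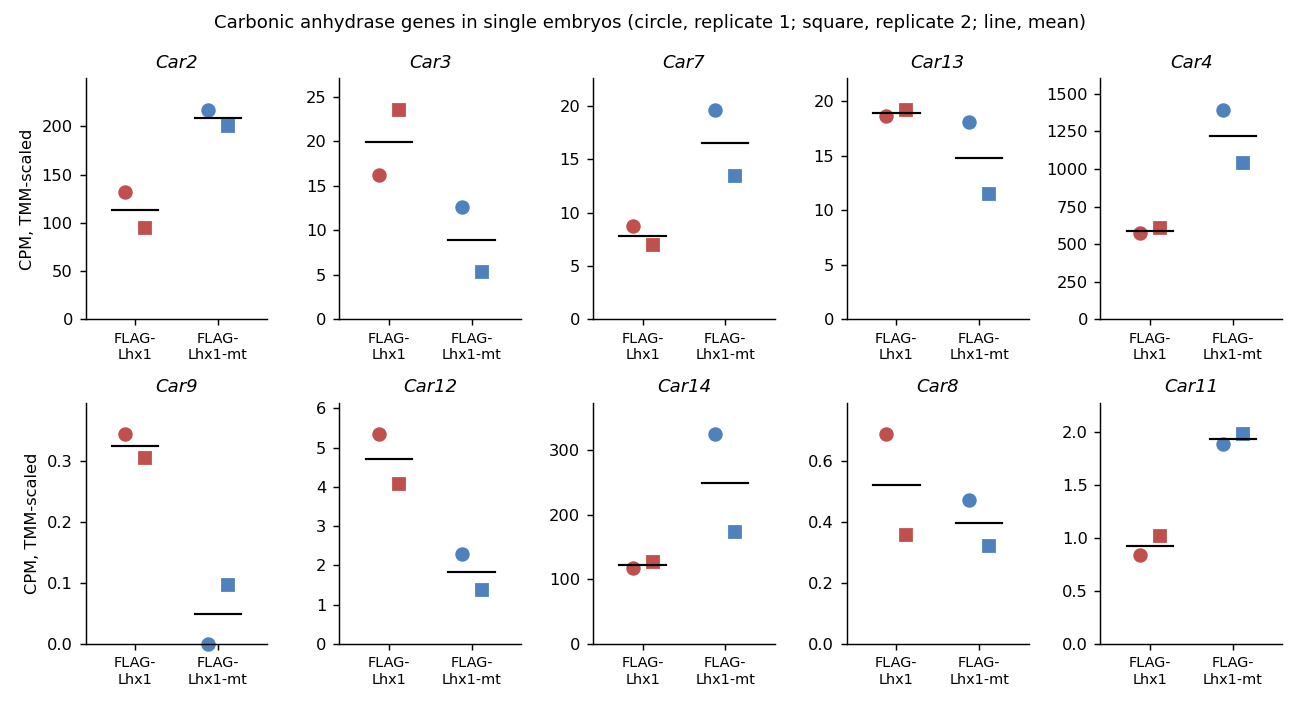
Level of each member in each embryo in CPM scaled by TMM on a linear axis that starts at 0, with FLAG-Lhx1 on the left and FLAG-Lhx1-mt on the right; circles are replicate 1, squares replicate 2 and lines the mean of 2. Car2, Car4, Car7, Car11 and Car14 lie lower in both FLAG-Lhx1 embryos, Car3, Car9, Car12 and Car13 lie higher, and Car8 overlaps between the groups.

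Car4 (ENSMUSG00000000805, chromosome 11 at 84957786 to 84966044 of GRCm38) encodes the lipid-anchored enzyme that works on the outer face of epithelial and endothelial cells. It was the most abundant member in all 4 embryos, with 575 and 605 CPM in FLAG-Lhx1 embryos and 1392 and 1041 CPM in FLAG-Lhx1-mt embryos. The groups did not overlap, and the FLAG-Lhx1-mt embryos differed more from each other than the FLAG-Lhx1 embryos did. The mean was 590.0 ± 20.8 CPM in FLAG-Lhx1 embryos and 1217 ± 248 CPM in FLAG-Lhx1-mt embryos (mean ± SD, n = 2 per group), a 2.06-fold lower level (log2 fold -1.04 ± 0.16, SE). Car4 was called lower in each of the 13 alternatives tried, with log2 folds of -1.25 to -0.83. It held 65.6% and 68.5% of the family's summed CPM in FLAG-Lhx1 replicates 1 and 2, against 70.0% and 71.8% in FLAG-Lhx1-mt replicates 1 and 2.

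Car14 (ENSMUSG00000038526, chromosome 3 at 95897768 to 95904691) encodes a membrane-spanning enzyme with an outward active site. It had 118 and 127 CPM in FLAG-Lhx1 embryos and 325 and 174 CPM in FLAG-Lhx1-mt embryos. Both FLAG-Lhx1 embryos were lower than both FLAG-Lhx1-mt embryos, and FLAG-Lhx1-mt replicate 1 stood well above replicate 2. The mean was 123 ± 6.54 CPM in FLAG-Lhx1 embryos and 249 ± 107 CPM in FLAG-Lhx1-mt embryos (mean ± SD, n = 2 per group; log2 fold -1.02 ± 0.22, SE). Without FLAG-Lhx1-mt replicate 1 the log2 fold was -0.51, still called, and DESeq2's Wald test did not call the gene on all 4 embryos (log2 fold -1.03). The last exon of Car14 overlaps that of Aph1a on the other strand, which covers 17.5% of the exon bases of Car14. Aph1a itself had 1.30 ± 0.11 CPM in FLAG-Lhx1 embryos and 0.969 ± 0.33 CPM in FLAG-Lhx1-mt embryos and was not called (log2 fold 0.44 ± 0.53, SE, edgeR adjusted p = 0.697). Whether strand was used in counting is not stated, so reads in the shared stretch cannot be assigned to either gene. The count of Aph1a, low for a gene known to be widely expressed, therefore does not show that Car14 is free of its reads.

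Car12 (ENSMUSG00000032373, chromosome 9 at 66713686 to 66766845), another membrane-spanning enzyme, went the other way at a much lower level. It had 5.34 and 4.07 CPM in FLAG-Lhx1 embryos and 2.28 and 1.37 CPM in FLAG-Lhx1-mt embryos. The groups did not overlap, and the means were 4.71 ± 0.90 CPM in FLAG-Lhx1 embryos and 1.83 ± 0.64 CPM in FLAG-Lhx1-mt embryos (mean ± SD, n = 2 per group). The log2 fold of 1.38 ± 0.38 (SE) was the largest rise among the 9 tested members. It was not called on leaving out replicate 1 of FLAG-Lhx1 (1.14) or replicate 2 of FLAG-Lhx1-mt (1.04), or with offsets for transcript length and GC content (1.38).

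Car9 (ENSMUSG00000028463, chromosome 4 at 43506966 to 43513729), the membrane enzyme induced by hypoxia in many tissues and tumours, was close to the limit of detection. It had 9 and 6 counts in FLAG-Lhx1 replicates 1 and 2 and 0 and 3 counts in FLAG-Lhx1-mt replicates 1 and 2. It did not pass the count filter, so no fold was fitted. The ratio of the scaled counts was 5.95, with an exact 95% interval of 1.68 to 32.1 that covers counting error only. The interval pools the reads of both embryos of a group. It leaves out the spread between embryos and the copies made in amplification, so no difference in Car9 is read from it. An annotated gene model on the other strand, Gm12454, covers 9.29% of the exon bases of Car9, and it had 4 and 6 counts in FLAG-Lhx1 and 4 and 8 in FLAG-Lhx1-mt.

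Of the cytosolic enzymes, Car2 (ENSMUSG00000027562) is the fast, widely expressed form known from red cells, kidney and osteoclasts. It had 133 and 95.1 CPM in FLAG-Lhx1 embryos and 217 and 201 CPM in FLAG-Lhx1-mt embryos. All FLAG-Lhx1 values were below all FLAG-Lhx1-mt values, with means of 114 ± 26.5 CPM in FLAG-Lhx1 embryos and 209 ± 11.8 CPM in FLAG-Lhx1-mt embryos (mean ± SD, n = 2 per group; log2 fold -0.87 ± 0.16, SE). The call was lost without FLAG-Lhx1 replicate 2, the lower of the pair (log2 fold -0.64). Car7 (ENSMUSG00000031883, chromosome 8 at 104534689 to 104550343), best known from neurons, had 8.74 and 6.97 CPM in FLAG-Lhx1 embryos and 19.6 and 13.4 CPM in FLAG-Lhx1-mt embryos. The groups did not overlap and the log2 fold was -1.06 ± 0.25 (SE). The call of Car7 was lost without FLAG-Lhx1 replicate 2 (-0.90) and with the length and GC offsets (-0.85).

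Car3 (ENSMUSG00000027559) encodes a slow cytosolic enzyme, abundant in adult skeletal muscle and fat and, as known from earlier work in mouse embryos, present in the notochord and early muscle. It had 16.3 and 23.6 CPM in FLAG-Lhx1 embryos and 12.6 and 5.30 CPM in FLAG-Lhx1-mt embryos. The groups did not overlap, but FLAG-Lhx1 replicate 1 and FLAG-Lhx1-mt replicate 1 were close. The means were 19.9 ± 5.16 CPM in FLAG-Lhx1 embryos and 8.94 ± 5.15 CPM in FLAG-Lhx1-mt embryos (mean ± SD, n = 2 per group; log2 fold 1.16 ± 0.32, SE). The call depended on the embryos. It was lost on leaving out replicate 2 of FLAG-Lhx1 (0.89) or replicate 2 of FLAG-Lhx1-mt (0.64), while leaving out FLAG-Lhx1-mt replicate 1 gave 1.90.

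Car13 (ENSMUSG00000027555), a further cytosolic enzyme, had 18.6 and 19.2 CPM in FLAG-Lhx1 embryos and 18.1 and 11.5 CPM in FLAG-Lhx1-mt embryos. FLAG-Lhx1-mt replicate 1 was almost level with the FLAG-Lhx1 embryos, and the gene was not called (log2 fold 0.36 ± 0.23, SE). The fold depended on the FLAG-Lhx1-mt embryo used: it was 0.71, and called, when replicate 1 of FLAG-Lhx1-mt was left out and 0.05 when replicate 2 was.

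Car13, Car1, Car3 and Car2 lie in this order in one cluster on chromosome 3, at 14641727 to 14663002, 14766216 to 14808368, 14863512 to 14872523 and 14886273 to 14900770. The 4 genes are the protein-coding ones among 6 genes of the files in these 259044 bases, and the members of the cluster differed in direction. Car3 and Car2 are transcribed from the same strand and are 13749 bases apart, and Car3 was called higher while Car2 was called lower. The ratio of Car2 to Car3 in CPM was 8.15 and 4.04 in FLAG-Lhx1 replicates 1 and 2, against 17.3 and 37.8 in FLAG-Lhx1-mt replicates 1 and 2. Car1, the red cell form on the opposite strand between Car13 and Car3, had 27 counts over both FLAG-Lhx1 embryos, against 40 over both FLAG-Lhx1-mt embryos, and was not called (log2 fold -0.37 ± 0.72, SE, edgeR adjusted p = 0.816).

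The members without catalytic activity were low. Car11 (ENSMUSG00000003273, chromosome 7 at 45699843 to 45704682), which is secreted and mainly known from brain, had 0.840 and 1.02 CPM in FLAG-Lhx1 embryos and 1.89 and 1.98 CPM in FLAG-Lhx1-mt embryos. The groups did not overlap, and the log2 fold of -1.06 ± 0.48 (SE) was about the size of that of Car4 but was not called. It rests on 42 counts over the FLAG-Lhx1 embryos, against 106 over the FLAG-Lhx1-mt embryos. Car8 (ENSMUSG00000041261, chromosome 4 at 8143362 to 8239041), which binds the inositol trisphosphate receptor in Purkinje cells, had 18 and 7 counts in FLAG-Lhx1 and 11 and 10 in FLAG-Lhx1-mt. Its groups overlapped, and its log2 fold of 0.43 ± 0.73 (SE) had a standard error larger than itself; without FLAG-Lhx1 replicate 1 it was -0.17. Of the 9 tested members, Car8 was the only one whose groups overlapped, and 52.2% of all tested genes had groups that did not overlap.

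**Figure D2:**
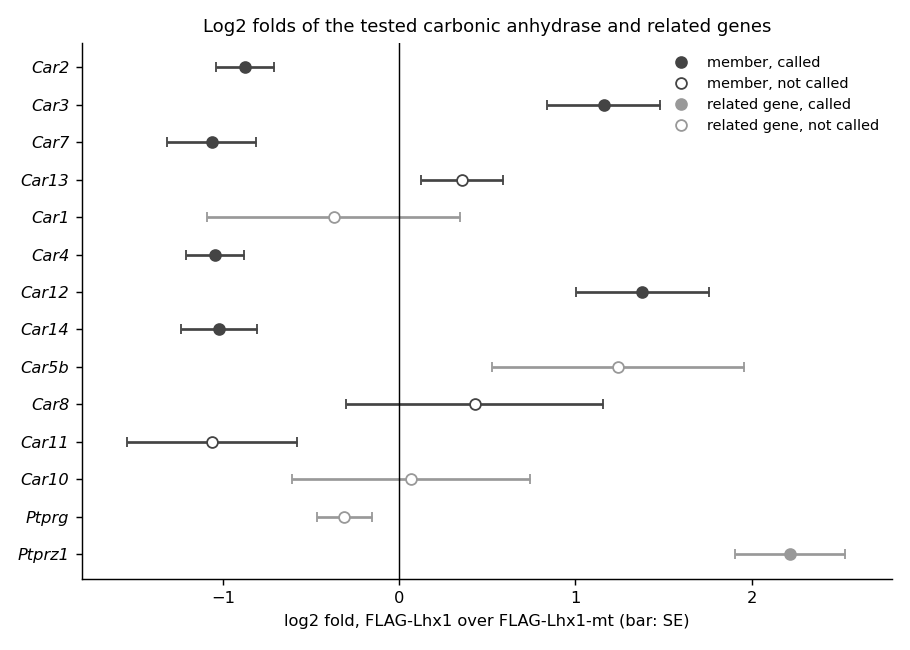
Log2 fold of FLAG-Lhx1 over FLAG-Lhx1-mt with its standard error for the 9 tested members (dark) and 5 tested related genes (grey); filled points were called by edgeR. Car2, Car4, Car7 and Car14 cluster between -1.06 and -0.87, Car3 and Car12 lie at 1.16 and 1.38, and Ptprz1 lies at 2.22.

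The levels of different members were compared per length, as CPM per kb of exon. Car4 led with 293 and 308 CPM per kb in FLAG-Lhx1 and 708 and 530 CPM per kb in FLAG-Lhx1-mt. Car14 (mean 48.2 CPM per kb in FLAG-Lhx1, 98.1 in FLAG-Lhx1-mt) and Car2 (mean 47.0 CPM per kb in FLAG-Lhx1, 86.2 in FLAG-Lhx1-mt) came next, and their ranges overlapped in both groups. Car13, Car3 and Car7 followed, at mean levels of 8.21, 6.95 and 2.16 CPM per kb in FLAG-Lhx1 and 6.43, 3.12 and 4.54 CPM per kb in FLAG-Lhx1-mt. Within this trio, Car13 and Car3 overlapped in FLAG-Lhx1, and Car7 overlapped with both of the others in FLAG-Lhx1-mt. Car7 thus ranked behind Car3 in FLAG-Lhx1 and ahead of it in FLAG-Lhx1-mt. Car12 and Car11 also changed places, with means of 0.620 and 0.482 CPM per kb in FLAG-Lhx1 and 0.240 and 1.00 CPM per kb in FLAG-Lhx1-mt. Car8 and Car9 were last, at 0.135 and 0.141 CPM per kb in FLAG-Lhx1 and 0.103 and 0.0208 CPM per kb in FLAG-Lhx1-mt. With the longest transcript in place of all exon bases, the first 3 places were the same, and the places of Car13, Car3 and Car7 changed.

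**Figure D3:**
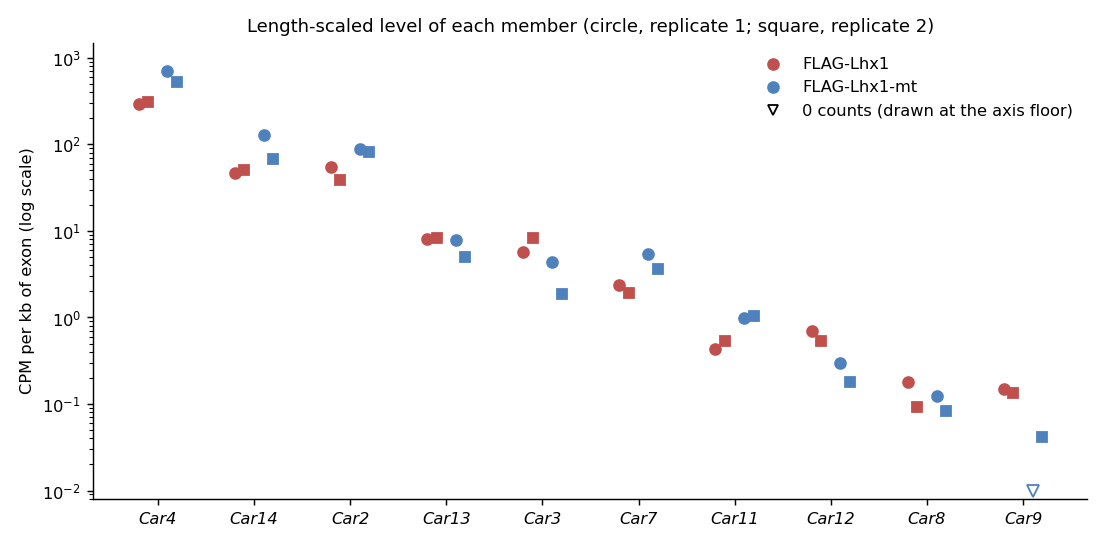
Level of each member in CPM per kb of exon on a log axis, with FLAG-Lhx1 in red on the left of each gene, FLAG-Lhx1-mt in blue on the right, circles for replicate 1 and squares for replicate 2. Car4 stands above all others in every embryo, and the open triangle marks the FLAG-Lhx1-mt embryo with 0 counts of Car9, drawn at the axis floor.

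The other carbonic anhydrase genes were barely detected, and their highest value in any embryo was 1.25 CPM of Car1 in FLAG-Lhx1-mt replicate 1. Car5b, Car10 and Car1 were tested and not called, and Car5a, Car6 and Car15 stayed below the count filter. The 16 counts of Car5b in each FLAG-Lhx1 embryo and 8 in each FLAG-Lhx1-mt embryo corresponded to a fitted log2 fold of 1.24 (SE 0.72; adjusted p = 0.344 in edgeR). Car10 had 27 counts over the FLAG-Lhx1 embryos, against 32 over the FLAG-Lhx1-mt embryos. Below the filter, Car5a had 4 counts in FLAG-Lhx1 embryos, against 11 in FLAG-Lhx1-mt embryos, Car6 had 6 in FLAG-Lhx1 embryos, against 9 in FLAG-Lhx1-mt embryos, and Car15 had 1 in FLAG-Lhx1 embryos, against 3 in FLAG-Lhx1-mt embryos. Car15 shares 65.7% of its exon bases with the gene model Gm20518. A pair of receptor phosphatases with a carbonic anhydrase-like outer domain was also looked up. Ptprz1, a receptor of the growth factor pleiotrophin in neural progenitors, rose to 8.88 ± 0.68 CPM in FLAG-Lhx1 embryos, against 1.92 ± 0.45 CPM in FLAG-Lhx1-mt embryos (mean ± SD, n = 2 per group; log2 fold 2.22 ± 0.31, SE, edgeR adjusted p = 0.000837). Ptprg was at 38.1 ± 0.72 CPM in FLAG-Lhx1 embryos and 47.3 ± 2.99 CPM in FLAG-Lhx1-mt embryos and was not called (adjusted p = 0.272).

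Genes that work with carbonic anhydrases in moving bicarbonate and protons, and genes of the hypoxia response, were counted next, against 6.17% of all tested genes called. Shares near that background are no result about a list. The share of all tested genes at an unadjusted p under 0.05 was not counted. Counts at that threshold therefore have no background beside them, and nothing is read from them. Of 13 tested genes for bicarbonate transport, of the SLC4 and SLC26 families and the channel gene Cftr, edgeR called 0, with 1 at an unadjusted p under 0.05, and DESeq2 and limma-voom also called 0 (median log2 fold 0.15). The smallest p was that of Slc26a11, at 4.76 ± 0.18 CPM in FLAG-Lhx1 embryos and 2.87 ± 0.05 CPM in FLAG-Lhx1-mt embryos (mean ± SD, n = 2 per group; edgeR adjusted p = 0.204). Slc26a9, an anion transporter gene, followed, at 0.929 ± 0.09 CPM in FLAG-Lhx1 embryos and 0.535 ± 0.03 CPM in FLAG-Lhx1-mt embryos (edgeR adjusted p = 0.495). Of 15 tested proton and lactate exporters, edgeR called 0, with 2 at an unadjusted p under 0.05, and DESeq2 and limma-voom called 0 (median 0.02). Those with the smallest p were Bsg, which encodes the chaperone basigin of the lactate carriers (log2 fold -0.46, edgeR adjusted p = 0.105), and Slc9a3r1, which encodes a scaffold of the sodium-proton exchanger (-0.42, adjusted p = 0.117). Of 4 tested channels for water and CO2, Aqp8 fell to 1.501 ± 0.04 CPM in FLAG-Lhx1 embryos, against 5.04 ± 1.78 CPM in FLAG-Lhx1-mt embryos (log2 fold -1.75 ± 0.38, SE, edgeR adjusted p = 0.0142), and none rose. Of 30 tested hypoxia response genes, Bnip3l, a mitophagy receptor gene, rose (0.53 ± 0.14, SE, edgeR adjusted p = 0.0349) and the glycolytic gene Eno1 fell (-0.67 ± 0.15, adjusted p = 0.0179), with a list median of 0.15. Neither call held in all 4 fits with an embryo left out or with the length and GC offsets, where the list had 0 calls in either direction.

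The lower members went the same way as markers of visceral endoderm, the absorptive layer around the embryo. That direction was not particular to visceral endoderm. Of 12 tested epiblast and gastrula markers, 8 also fell and 1 rose (median log2 fold -1.49). The called ones with the smallest p were Tdgf1 (log2 fold -4.76), Mixl1 (-3.68), Utf1 (-2.97) and Eomes (-3.12). Of 18 tested visceral endoderm markers, 8 fell and 0 rose (median log2 fold -0.61, from -1.30 to 0.87), against 3.55% of all tested genes called lower and 2.62% higher. With upper-quartile scaling, or without FLAG-Lhx1 replicate 1, 5 fell. Among them Apoa1, an apolipoprotein gene, was at 428 ± 11.2 CPM in FLAG-Lhx1 embryos and 1054 ± 75.6 CPM in FLAG-Lhx1-mt embryos (mean ± SD, n = 2 per group; log2 fold -1.30 ± 0.15, SE, edgeR adjusted p = 0.000119). Apoa4 (-1.30), Apom (-1.10) and the uptake receptor gene Cubn (-0.61) also fell. The summed level of the 18 markers was 3077 and 3551 CPM in FLAG-Lhx1 embryos, against 5725 and 5275 CPM in FLAG-Lhx1-mt embryos, and none of them was at 0 in either group. Per 1000 CPM of these markers, Car4 had 187 and 170 CPM in FLAG-Lhx1 embryos and 243 and 197 CPM in FLAG-Lhx1-mt embryos. The marker sum was itself lower in FLAG-Lhx1, so dividing by it narrows the gap of any gene that is lower there. Nothing is read from a smaller gap or an overlap on this scale. On the same scale Car2 had 43.1 and 26.8 CPM in FLAG-Lhx1 embryos and 37.9 and 38.0 CPM in FLAG-Lhx1-mt embryos, Car14 had 38.3 and 35.8 CPM in FLAG-Lhx1 embryos and 56.8 and 32.9 CPM in FLAG-Lhx1-mt embryos, and Car7 had 2.84 and 1.96 CPM in FLAG-Lhx1 embryos and 3.43 and 2.54 CPM in FLAG-Lhx1-mt embryos. The groups overlapped for these 3 genes on that scale. The part of the visceral endoderm in the lower levels was not tested.

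Car3 and Car12 were higher in the FLAG-Lhx1 embryos, and so were markers of mesoderm and neural plate. In RNA of whole embryos, a shared direction does not place either gene in a tissue. Over all tested genes, 2.62% were called higher and 3.55% lower. Of 10 tested markers of paraxial and muscle-forming mesoderm 7 rose and 0 fell. Their summed level was 107 and 130.1 CPM in FLAG-Lhx1 embryos and 36.6 and 20.8 CPM in FLAG-Lhx1-mt embryos. The called ones with the smallest p were Aldh1a2 (log2 fold 5.67), Foxc2 (1.76), Foxc1 (1.81) and Pax3 (3.48). Of 12 tested node and notochord markers 2 rose and 2 fell, with sums of 244 and 189 CPM in FLAG-Lhx1 embryos and 310.0 and 213 CPM in FLAG-Lhx1-mt embryos. Of 12 tested neural plate markers 7 rose and 0 fell, with sums of 272 and 254 CPM in FLAG-Lhx1 embryos and 103 and 129 CPM in FLAG-Lhx1-mt embryos. Their part in the levels of Car3 and Car12 was not tested. Blood is a tissue in which Car1 and Car2 are known to be abundant. Of 6 tested blood markers 0 were called (1 at an unadjusted p under 0.05, 0 by DESeq2 and limma-voom), against 6.17% of all tested genes. With so few markers at low counts, 0 calls are near that share, and nothing about Car2 is read from them. The sums were 18.9 and 16.7 CPM in FLAG-Lhx1 embryos and 17.7 and 21.8 CPM in FLAG-Lhx1-mt embryos. The 4 globin genes of this list did not pass the count filter. The embryonic Hba-x had 2 counts in all over the FLAG-Lhx1 embryos, against 0 over the FLAG-Lhx1-mt embryos, too few to tell a difference. The adult-type Hba-a1 had 10 counts over the FLAG-Lhx1 embryos, against 77 over the FLAG-Lhx1-mt embryos, nearly all of them in FLAG-Lhx1-mt replicate 2 (2.43 CPM, against 0.0429 CPM in replicate 1).

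**Figure D4:**
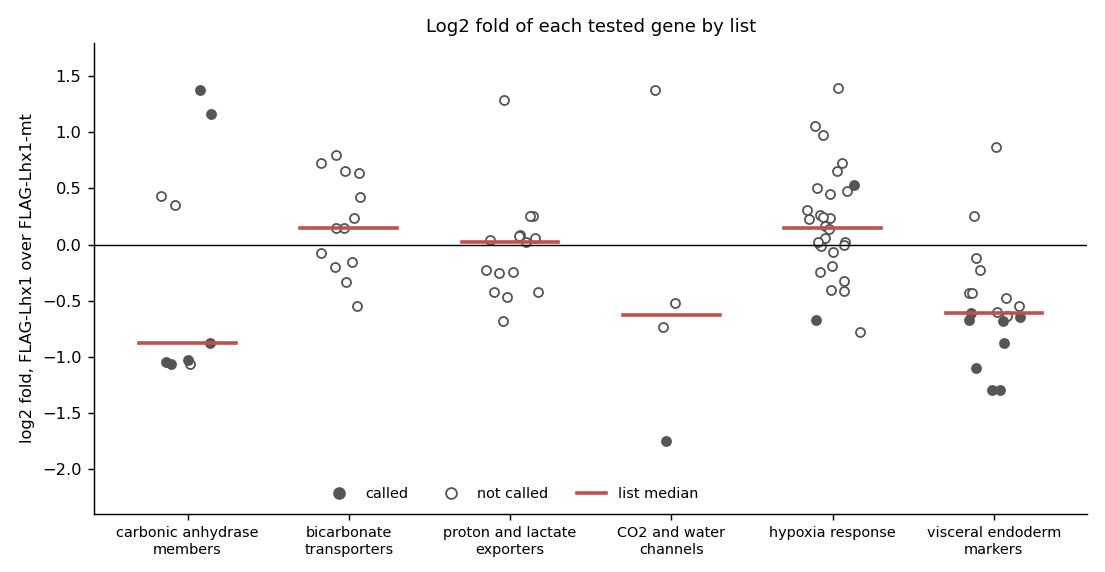
Log2 fold of FLAG-Lhx1 over FLAG-Lhx1-mt of each tested gene in 6 lists; filled points were called by edgeR and red lines are list medians. The carbonic anhydrase members split into a lower and a higher group, bicarbonate transporters and exporters have no filled point, and most visceral endoderm markers lie below 0.

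As facts of the whole data set, total counts ran from 21267116 to 30434442 per embryo, and a count of 3 corresponds to 0.0986 to 0.141 CPM. The gene model Gm10800 took 8.02% and 13.8% of the counts in FLAG-Lhx1 and 7.34% and 5.72% in FLAG-Lhx1-mt. Lhx1 was not called between the groups (121 ± 10.3 CPM in FLAG-Lhx1 embryos and 112 ± 19.4 CPM in FLAG-Lhx1-mt embryos, SD, n = 2 each; edgeR adjusted p = 0.733), and counts per gene add transgene and endogenous reads together. Of 12 epiblast and gastrula markers, all tested, 8 fell and 1 rose. Their sums were 313 and 261 CPM in FLAG-Lhx1 embryos and 721 and 924 CPM in FLAG-Lhx1-mt embryos. Each of these markers had counts in every embryo, though most were lower in FLAG-Lhx1. Of 11 tested trophoblast and extraembryonic ectoderm markers 1 fell and 0 rose, and of 7 tested cardiac markers 1 rose and 1 fell. Over all tested genes 6.17% were called, 2.62% higher and 3.55% lower. Nothing is read from counts near these shares. None of 8 tested endothelial or 3 tested maternal markers was called by edgeR, DESeq2 or limma-voom, with 1 and 0 at an unadjusted p under 0.05. The maternal list has 10 genes, and most did not pass the count filter. Of those, Prl8a2 had 1.66 CPM and Hbb-bs 1.09 CPM in FLAG-Lhx1-mt replicate 2, and at most 0.153 CPM in any other embryo. The rest had at most 0.458 CPM in any embryo. The source of these reads was not tested.

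With single embryos left out, the number of members called lower was 2 to 4 and that called higher 0 to 3. The lowest values were 2 members called lower without FLAG-Lhx1 replicate 2 and 0 called higher without FLAG-Lhx1-mt replicate 2. With 2 embryos in each group, the smallest p that exact two-sided permutation can give for 1 gene is 0.333, and the calls rest on a variance that edgeR shares across genes.

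**Figure D5:**
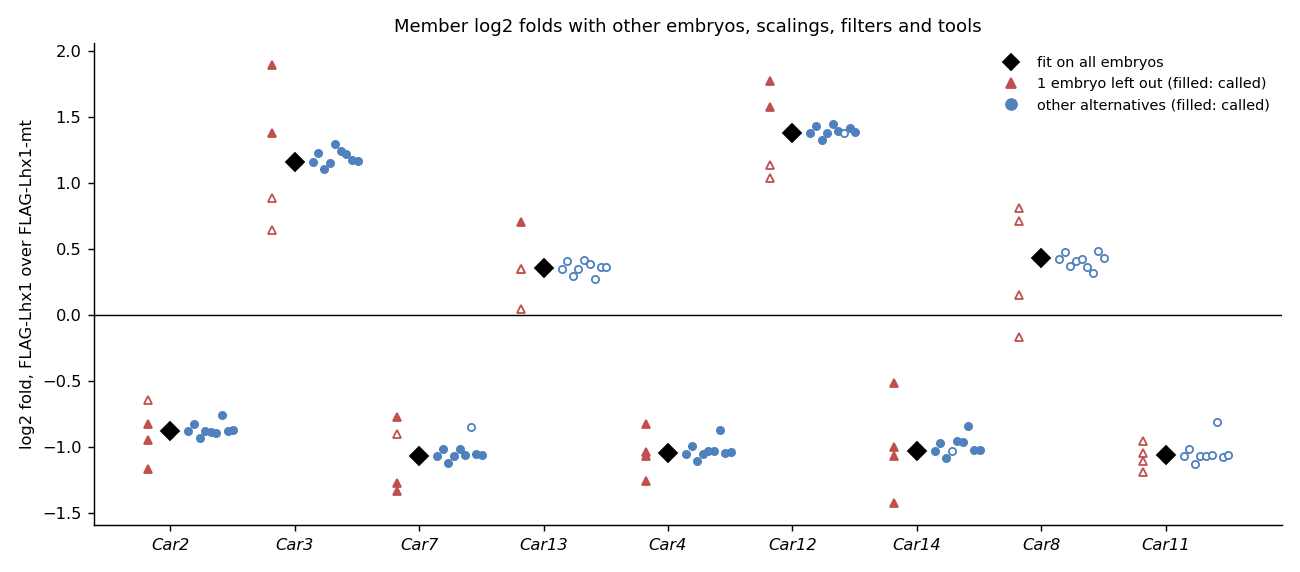
Log2 fold of FLAG-Lhx1 over FLAG-Lhx1-mt of the 9 tested members in the fit on all embryos (black diamonds), with each embryo left out (red triangles) and under the other alternatives (blue circles); filled triangles and circles were called, and circles are spread sideways only to keep them apart. Car4 is filled throughout, Car14 has 1 open circle (DESeq2), Car3 spreads from 0.64 to 1.90 and Car14 from -1.42 to -0.51 with 1 embryo left out, and Car8 crosses 0.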

How the data were processed

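RNA-seq libraries of 4 single embryos were compared. The labels' protocols give the Geo-seq method, which reads whole transcripts from little RNA. The cDNA had 10 cycles of pre-amplification, Nextera XT libraries were made from 0.5 ng, and reads were 100 bp and paired. Without molecular identifiers, amplified copies count as separate reads. The deposited values are raw read counts for each Ensembl gene with no scaling, per the file headers. STAR, featureCounts, Subread and the builds GRCm38 and mm10 are named in the submitters' processing notes; their versions, the annotation and whether strand was used are not given in these sources, so reads of overlapping genes on opposite strands cannot be told apart.

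GENCODE M21 on GRCm38 gave symbols and positions for 37693 of 39179 IDs (96.2%). Genes were filtered with filterByExpr (minimum count 10, minimum total 15) and scaled by TMM, and the groups were compared with edgeR 4.0.16 (R 4.3.3; glmQLFit and glmQLFTest, group only), adjusted over all 15822 tested genes. A positive log2 fold means higher in FLAG-Lhx1, and its SE is its absolute value divided by the root of the F statistic. Dispersion was estimated at a biological coefficient of variation of 18.2%; the residual degrees of freedom were 2 and the prior ones 13.4. The fit was tested on simulated data. Alternatives were RLE and upper-quartile scaling, no filter, DESeq2 1.42.0, limma-voom (limma 3.58.1), each embryo left out, a replicate block and offsets for transcript length and GC content; the newer edgeR form and leaving out Gm10800 and Gm21738 were added after seeing the data.

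The members and gene lists were chosen with earlier results of these data known. Named are all members, the related carbonic anhydrase genes and, of each list, up to 4 called genes by p, or else 2 genes by p. Of the cell type lists, this rule is printed for visceral endoderm, epiblast and gastrula, paraxial and muscle-forming mesoderm, and neural plate. Hba-x, Hba-a1, Prl8a2 and Hbb-bs were named after their values were seen. Each embryo is 1 replicate, since the labels say that RNA came from single embryos. Promoter sequences are from RefSeq.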

Additional observations from a re-analysis of the deposited data

How the results depend on the processing

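With 1 embryo left out, the number of called genes was 521 to 1648, the members called higher 0 to 3 and the members called lower 2 to 4. Leaving out an embryo moved list counts as follows: bicarbonate transporters called higher 0 to 1; exporters lower 0 to 1; channels lower 1 to 2; hypoxia genes higher 0 to 4 and lower 0 to 2; visceral endoderm higher 0 to 1 and lower 5 to 10; blood higher 0 to 1 and lower 0 to 2; endothelium higher 0 to 1; node and notochord higher 2 to 4 and lower 1 to 2; cardiac markers higher 1 to 3; trophoblast higher 0 to 1 and lower 0 to 2; maternal markers lower 0 to 2; epiblast and gastrula higher 0 to 1. The counts of neural plate and paraxial mesoderm markers called higher, and of epiblast and gastrula markers called lower, also changed. The log2 fold of Car8, which was never called, was -0.17 to 0.81 and below 0 without FLAG-Lhx1 replicate 1. The causes were not tested; leaving out either FLAG-Lhx1-mt embryo raised the number of called genes (1648 and 1553), and leaving out either FLAG-Lhx1 embryo lowered it (628 and 521).

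With offsets for length and GC content, 627 genes were called in place of 976, 1 member was called higher (Car3), 0 hypoxia genes were called in either direction and 1 node marker was lower. Upper-quartile scaling called 5 visceral endoderm markers lower, 1 node marker lower and 2 hypoxia genes higher, and 54.4% of its 867 calls were higher, against 42.5% with TMM. Without a count filter, 1447 genes were called, 2 hypoxia genes, 2 trophoblast genes, 1 exporter, 1 blood and 1 maternal marker were lower and 2 cardiac markers were higher. DESeq2 called 2 hypoxia genes higher, 2 trophoblast genes lower and 0 cardiac markers higher. RLE scaling and the newer edgeR form each called 2 trophoblast genes lower, and the newer form 2 cardiac markers higher. The causes were not tested.

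Same-numbered embryos of the groups deviated from their group means with a correlation of 0.02 across genes. The labels do not say that the numbers pair embryos. With a single difference between embryos in each group, this value cannot exclude a pairing. A replicate block called 1138 genes, of which 956 were shared with the 976 at the same sign, called 2 members higher and 4 lower, and called 2 cardiac markers higher in place of 1. In total, 106 of the 117 values of member log2 folds under alternatives kept their direction and their side of the threshold. That total includes members that were not called, and most alternatives reuse the same 4 embryos. Of the called members, Car4 kept both in 13 of 13 alternatives, Car2 and Car14 in 12, Car3 and Car7 in 11 and Car12 in 10. At these depths Car8 and Car9, with at most 18 counts in an embryo, could show only large differences, and counting error is the least error they carry.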

Other observations

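The genes whose levels followed the called members most closely across the 4 embryos were looked up by the distance between log2 CPM values centred over the embryos. Predicted genes (Gm and Rik names) and IDs without a symbol were left out of the genes named, but they enter the counts within a distance. With 4 embryos, many genes share a pattern: 624 tested genes lay within a distance of 0.5 of Car4, 930 of Car2, 418 of Car7, 254 of Car14, 153 of Car12 and 139 of Car3. The nearest to Car4 were Lrrc47 (distance 0.05) and Capg (0.07), a gene for an actin-capping protein, with 12.6 and 13.7 CPM of Capg in FLAG-Lhx1 and 32.2 and 22.6 CPM in FLAG-Lhx1-mt. The nearest to Car2 were Minar2 (0.05), at only 0.407 to 1.03 CPM, and Scamp3 (0.09). To Car7 they were Adora2b (0.09), an adenosine receptor gene, and Elovl1 (0.10), a fatty acid elongase gene. Slc31a2 (0.10) and Sugct (0.14), the latter at only 0.407 to 1.25 CPM, were nearest to Car14. For the members that were higher, the nearest were Nlrp12 (0.09) and Art5 (0.12) for Car3, and Tac1 (0.10) and Vps37d (0.11) for Car12, all at under 2 CPM.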
